A study of Tursiops truncatus with 31 samples.

Results

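The transcripts described here are those of OAS1, OAS2 and OASL, the members of the oligoadenylate synthetase family named in RNA-seq of globin-depleted blood from healthy bottlenose dolphins (Tursiops truncatus) under human care. They were found by the gene name column of the deposited tables, which gave 3 of 9610 genes in the table quantified with RSEM and 2 of 8030 genes (OAS1 and OAS2) in the table quantified with Cufflinks. The genes were selected on their measured levels, which were already known to differ among the animals and between the sexes and to be very high in a few libraries, so their levels and differences by animal, sex, month and season are given as descriptions with no test. Blood came from 4 animals. The females were Keo (12 years, 9 libraries) and Pele (28 years, 7 libraries), and the males were Hua (5 years, 8 libraries) and Kai (17 years, 7 libraries). Each animal was bled repeatedly between February and December. Summer was taken as July, August and September (8 libraries, 4 of each sex), and winter as December and February (8 libraries, 4 of each sex), with 15 libraries in other months. All 31 samples were whole blood collected in PAXgene tubes and treated with RNase H to remove the transcripts of the globins HBA, HBB and HBM, and no treatment or infection was given. Each sex was represented by 2 animals only, so sex, age and individual cannot be told apart.

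OAS enzymes are sensors of double-stranded RNA, a product of many viral infections. On binding it they link ATP into short oligoadenylates, second messengers that lead to the decay of viral and cellular RNA and to a halt of protein synthesis. OAS1 is the smallest synthetase and OAS2 carries a duplicated synthetase unit. In humans OASL has lost the synthetase activity, carries ubiquitin-like domains and strengthens signalling by the RNA sensor RIG-I. Transcription of the family is induced by interferons, and in blood it is a common readout of an interferon response. The fourth human synthetase gene, OAS3, was not among the named genes analysed here.

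The genes had the identifiers ENSTTRG00000002404 (OAS1), ENSTTRG00000002406 (OAS2) and ENSTTRG00000001955 (OASL) of the Ensembl dolphin annotation turTru1. Coordinates of that build were not used here. A RefSeq gene table of another dolphin assembly, mTurTru1.mat.Y, matched 2 of the 3 by symbol. In its gene order OAS2 lay between SLC8B1 and LOC109552611.

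Expression is given as FPKM, the number of sequenced fragments scaled to the length of the transcript and to the size of the library, which can be compared between genes. Of the 9610 genes, between 7962 and 9597 were above 0 in a library, and the fewest were detected in the February library of Kai. The July and August libraries of Pele stood apart from the others in interferon genes, so results that rest on them are also given without them. At the level of all genes 4.09% had their highest value in the August library of Pele and 6.01% in the July library.

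By RSEM OAS1 was by far the most abundant of the 3 genes and stood higher in the females than in the males. It averaged 72.0 ± 49.8 FPKM in females (SD, n = 16) and 14.8 ± 8.67 FPKM in males (SD, n = 15). OAS2 followed the same order at a lower level, with 11.8 ± 11.3 FPKM in females and 2.23 ± 1.22 FPKM in males. OASL, in contrast, averaged 2.90 ± 3.90 FPKM in females and 2.31 ± 2.05 FPKM in males, so the means lay closer together than the libraries of either sex. Over all 31 libraries OAS1 held place 1659 of 9610 genes by mean FPKM, OAS2 place 5738 and OASL place 8154.

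By animal, OAS1 had a lowest, median and highest value of 24.7, 75.6 and 100.08 FPKM in Keo, and of 19.0, 41.6 and 208 FPKM in Pele. The corresponding values were 2.60, 10.4 and 18.2 FPKM in Hua, and 4.20, 22.6 and 30.9 FPKM in Kai. The ranges of Keo and Hua did not overlap, nor did those of Pele and Hua. Kai overlapped all other animals, since the highest value of Kai was above the lowest of both females. Of the female libraries 13 of 16 lay above the highest male library, and 11 of 15 male libraries lay below the lowest female one. In each of the 3 months in which every animal was sampled (February, May and December), both females had more OAS1 than both males.

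OAS2 had a lowest, median and highest value of 5.32, 9.28 and 18.4 FPKM in Keo and of 1.01, 6.17 and 41.1 FPKM in Pele. In Hua these values were 0.05, 2.14 and 3.15 FPKM, and in Kai 1.28, 2.32 and 4.57 FPKM. Every library of Keo was above every male library, whereas Pele overlapped both males. The number of female libraries above the highest male one was again 13 of 16, but only 2 of 15 male libraries were below the lowest female value, which was the May library of Pele. Both females exceeded both males in 2 of the 3 months sampled in all animals.

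OASL was listed at 0 in 5 libraries, 2 of Keo (June and December) and 3 of Hua (March, April and August). Its lowest, median and highest values were 0, 1.22 and 6.48 FPKM in Keo and 0.21, 1.98 and 14.6 FPKM in Pele. They were 0, 0.83 and 5.52 FPKM in Hua and 0.09, 2.97 and 6.35 FPKM in Kai. The ranges of all 4 animals overlapped, and the median was higher in males than in females, with 1.44 FPKM in females and 2.51 FPKM in males. The highest value of Kai came from the February library with the fewest detected genes.

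**Figure D1:**
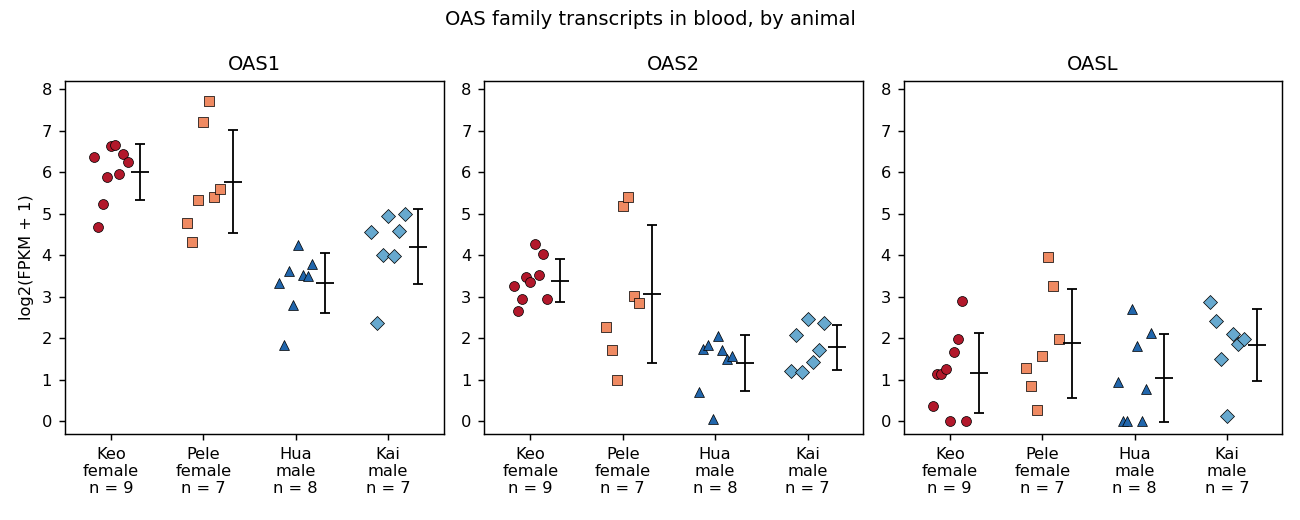
Levels of OAS1, OAS2 and OASL as log2(FPKM + 1) on the vertical axis, 1 point per library, by animal on the horizontal axis (n = 9 for Keo, 7 for Pele, 8 for Hua and 7 for Kai). The bar beside each animal is the mean ± SD on the log2 scale. OAS1 and OAS2 stand higher in the females Keo and Pele than in the males Hua and Kai, while OASL overlaps in all 4 animals.

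On the log2(FPKM + 1) scale, on which differences of weakly expressed genes come out too small, the female minus male difference was 2.16 ± 0.31 (SE) for OAS1, 1.67 ± 0.32 for OAS2 and 0.06 ± 0.37 for OASL. The median of all genes was itself shifted by 0.34 towards females, and relative to it the differences were 1.83, 1.33 and -0.27. OAS1 held place 4 and OAS2 place 13 of 9610 genes by this difference, and OASL place 7669. These values are descriptions, because the genes were chosen with them known. The SEs count each library as a replicate, although each sex had only 2 animals, so they overstate the precision. After median-ratio scaling of the libraries, which brought the median of all genes to 0.04, the differences were 1.81 ± 0.30 for OAS1, 1.37 ± 0.32 for OAS2 and -0.16 ± 0.38 for OASL, so the sign for OASL depended on the scaling. With the July and August libraries of Pele left out they were 1.94, 1.37 and -0.12. Leaving out 1 animal at a time gave 1.70 to 2.57 for OAS1 and 1.46 to 1.84 for OAS2, and -0.36 to 0.47 for OASL.

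The share of the variance of log2(FPKM + 1) that lay between animals was 64.7% for OAS1, more than for 99.5% of genes. It was 48.7% for OAS2, more than for 97.0% of genes, and 12.8% for OASL, below the median of all genes (17.4%). Most of the variance of OAS1 thus lay between animals, whereas that of OAS2 was split about evenly and most of that of OASL lay among samplings of the same animal. After scaling the shares were 62.7% for OAS1, 41.6% for OAS2 and 15.7% for OASL, beside a median of 13.6%.

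Within the year OAS1 moved several-fold in each animal. In Keo it was 81.4 FPKM in February, 24.7 in March, 36.5 in April, 58.4 in May, 97.8 in June, 100.08 in August, 61.3 in October, 86.7 in November and 75.6 in December, with its lowest value in March and a smaller dip in October. In Pele it was 26.7 FPKM in February, 19.0 in March, 39.5 in May, 147 in July, 208 in August, 41.6 in September and 47.5 in December. July and August were the highest OAS1 values of all 31 libraries, and the September sample, taken 16 days after the August one, was 5.01-fold lower.

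In the males OAS1 did not exceed 30.9 FPKM. Hua had 9.16 FPKM in February, 2.60 in March, 11.4 in April, 5.94 in May, 18.2 in July, 10.5 in August, 10.3 in October and 13.0 in December. Kai had 22.6 FPKM in February, 4.20 in April, 15.1 in May, 29.9 in June, 14.9 in July, 23.0 in September and 30.9 in December. Each animal had its lowest OAS1 value in March or April, a feature noticed in these values and not tested.

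OAS2 in Keo was 8.56 FPKM in February, 5.32 in March, 6.73 in April, 10.07 in May, 9.28 in June, 18.4 in August, 10.6 in October, 15.5 in November and 6.78 in December. In Pele it was 3.87 FPKM in February, 2.29 in March, 1.01 in May, 35.2 in July, 41.1 in August, 7.06 in September and 6.17 in December. The May library of Pele was the lowest of the females and the July library, 50 days later, was 34.9-fold higher. From August to September OAS2 was 5.83-fold lower, nearly the same ratio as for OAS1.

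Male OAS2 values were all low. Hua had 0.64 FPKM in February, 2.37 in March, 2.59 in April, 0.05 in May, 3.15 in July, 2.31 in August, 1.83 in October and 1.96 in December. Kai had 1.34 FPKM in February, 3.21 in April, 1.28 in May, 4.57 in June, 1.68 in July, 2.32 in September and 4.17 in December. Large ratios between such low values carry little information, for example the 63.0-fold step between May and July in Hua.

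OASL followed another course. In Keo it was 0.29 FPKM in February, 1.21 in March, 1.22 in April, 1.42 in May, 0 in June, 2.21 in August, 2.96 in October, 6.48 in November and 0 in December, 12 days after the November peak. In Pele it was 1.46 FPKM in February, 0.80 in March, 0.21 in May, 1.98 in July, 14.6 in August, 8.55 in September and 2.99 in December. The July library of Pele, in which OAS1 and OAS2 were the second highest of all, therefore had an OASL level within the range of every other animal, and the September library had a high OASL level beside much lower OAS1 and OAS2.

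In Hua OASL was 0.94 FPKM in February, 0 in March and April, 5.52 in May, 2.51 in July, 0 in August, 0.72 in October and 3.36 in December. In Kai it was 6.35 FPKM in February, 4.37 in April, 1.84 in May, 0.09 in June, 3.29 in July, 2.64 in September and 2.97 in December. The May value of Hua was the highest OASL value of that animal in the library in which its OAS2 was lowest.

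**Figure D2:**
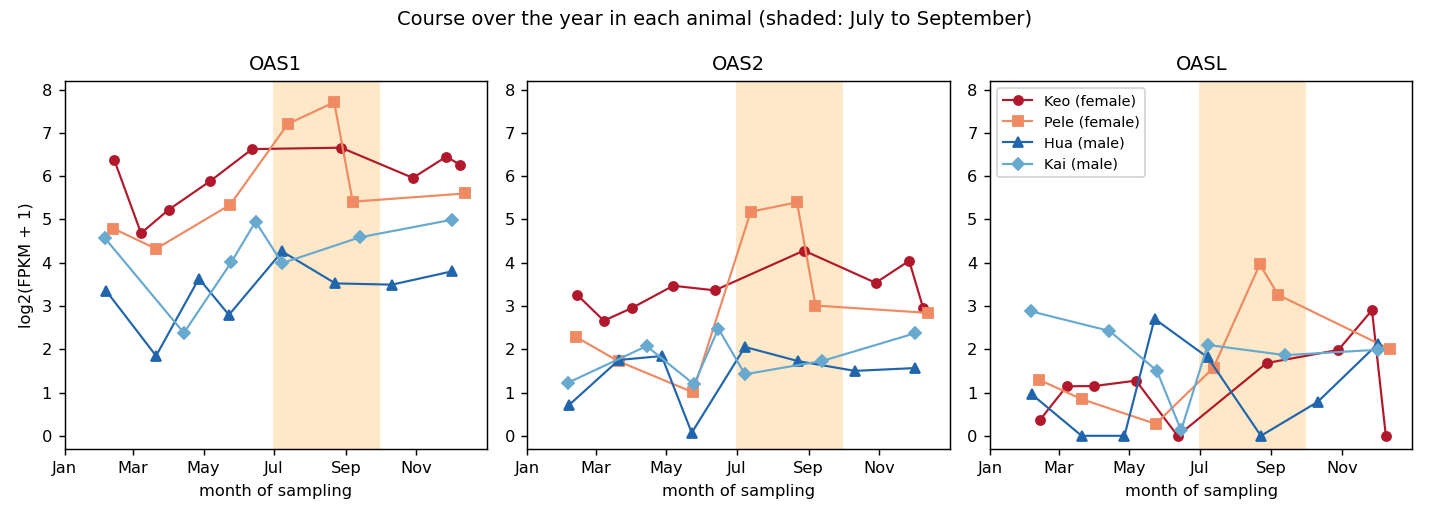
Levels of OAS1, OAS2 and OASL as log2(FPKM + 1) on the vertical axis against the month of sampling on the horizontal axis, with 1 line per animal and the months July to September shaded. OAS1 and OAS2 of Pele peak together in July and August and are near the other libraries again 16 days after the August sample, whereas OASL of Pele peaks in August only.

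Because FPKM depends on what else is in a library, the place of each gene within its own library was also read. OAS1 held place 440 of 9610 genes in the August library of Pele and 645 in the July library, against places 1929 to 2927 in the other libraries of Pele. It ranged from place 925 to 2094 in Keo, from 3529 to 6655 in Hua and from 1813 to 5708 in Kai. OAS2 reached place 1784 in August and 2204 in July in Pele, and its best place elsewhere was 3753, in the August library of Keo. OASL held place 3674 in the August library of Pele and 4198 in the February library of Kai, and otherwise place 5612 or further down. On this scale, which needs no normalization between libraries, the August and July libraries of Pele were again first and second of all libraries for OAS1 and OAS2.

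**Figure D3:**
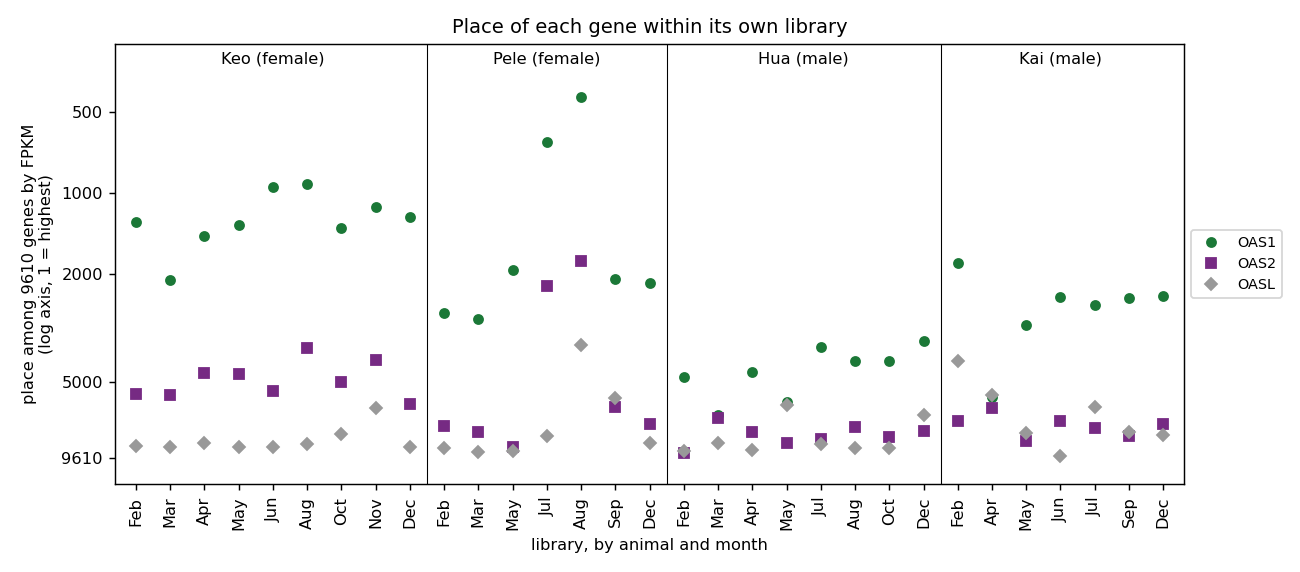
Place of OAS1, OAS2 and OASL among the 9610 genes of each library by FPKM (vertical log axis, place 1 is the highest gene) for the 31 libraries on the horizontal axis, by animal and month. Genes listed at 0 share the best place of all genes at 0. OAS1 reaches place 440 and OAS2 place 1784 in the August library of Pele, and the places of OAS1 in Keo are all better than those in Hua.

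Within libraries OAS1 was above OAS2 by RSEM in 31 of 31 libraries, with a median OAS1 over OAS2 ratio of 6.55. By Cufflinks the order was reversed in some male libraries. These were the March, April, October and December libraries of Hua and the April and July libraries of Kai. In the April library of Kai, for example, Cufflinks gave 1.00 FPKM for OAS1 and 2.01 for OAS2. The ratios that follow are from RSEM. By animal the median ratio was 5.78 in Keo and 6.89 in Pele, and 5.69 in Hua and 8.87 in Kai. Single libraries spread far more widely, from 4.64 to 11.2 in Keo and 4.18 to 39.1 in Pele, and from 1.10 to 118.8 in Hua and 1.31 to 16.9 in Kai. OAS1 was above OASL in 30 of 31 libraries, the exception being the April library of Kai. OASL was above OAS2 in 1 of 16 female libraries and in 8 of 15 male libraries, where both were low.

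OAS1 and OAS2 varied together over the libraries, but less closely within each male. Over the 31 libraries Spearman's rho between them was 0.829 and Pearson's r of log2(FPKM + 1) was 0.835. Without the July and August libraries of Pele rho was 0.791 and r was 0.777 (n = 29), and with each animal's mean subtracted r was 0.654. Within animals rho was 0.70 in Keo and 0.857 in Pele, and 0.548 in Hua and 0.50 in Kai. The corresponding r was 0.714 in Keo and 0.906 in Pele, and only 0.316 in Hua and 0.147 in Kai. The points share libraries, depth and animals, so no p-value is given.

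OASL showed little relation to the other members. Its rho with OAS1 was 0.116 (r = 0.177) and with OAS2 0.104 (r = 0.216), and without the July and August libraries of Pele these were 0.01 and -0.003. Within Pele rho was 0.75 with OAS1 and 0.893 with OAS2, and within Keo it was 0.04 and 0.669. In the males it was 0.146 and -0.488 in Hua, and -0.464 and -0.286 in Kai. The rho of OASL with OAS2 was thus positive in both females and negative in both males, over 7 to 9 libraries per animal and with OASL near 0 in many of them.

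**Figure D4:**
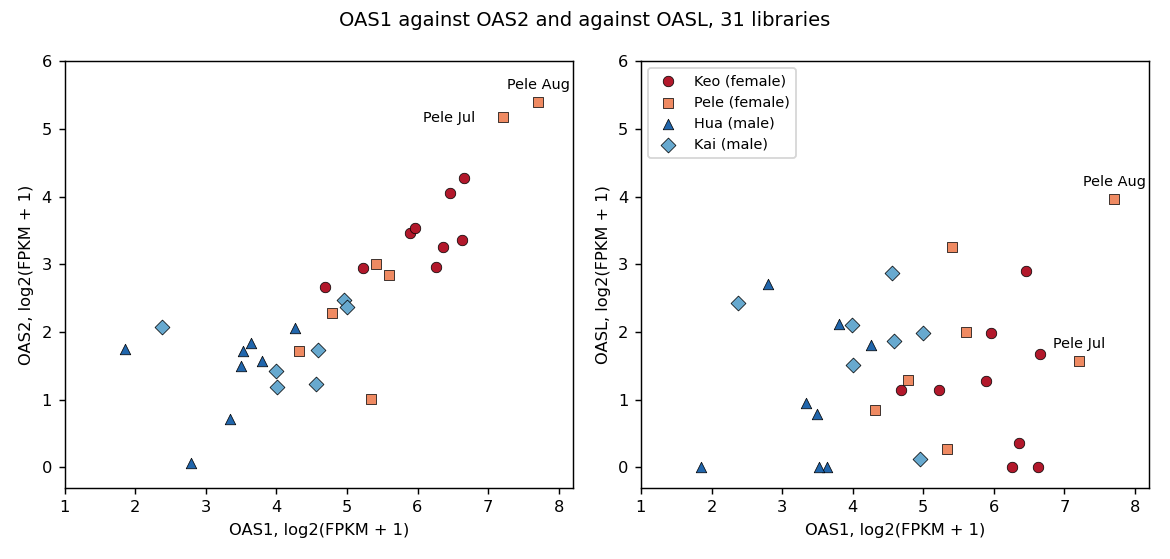
OAS1 against OAS2 (left) and OAS1 against OASL (right), both axes as log2(FPKM + 1), 1 point per library with colour and shape by animal. The points of OAS1 and OAS2 run along a diagonal (rho 0.829), with the July and August libraries of Pele at its upper end, and those of OAS1 and OASL are scattered (rho 0.116).

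The Cufflinks table gave the same order of the sexes for OAS1 and OAS2 at other absolute levels. OAS1 averaged 15.0 ± 13.9 FPKM in females and 2.02 ± 1.35 FPKM in males, and all 16 female libraries were above all 15 male libraries. OAS2 averaged 6.57 ± 7.21 FPKM in females and 1.46 ± 0.86 FPKM in males, with 10 of 16 female libraries above the highest male one. Across libraries the quantifications had a rho of 0.958 for OAS1 and 0.925 for OAS2, but RSEM gave a median of 5.69-fold more OAS1 than Cufflinks and 1.79-fold more OAS2. The absolute level of OAS1 therefore depended on the quantification. OAS family members are related in sequence, and how reads that fit more than 1 of them were divided was not tested.

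The de novo assembly table, which carries no gene names, was searched for the genes whose pattern was most like that of each member. The nearest to OAS1 was comp2518_c0 with a rho of 0.958 over 31 libraries, with 20.003 ± 14.3 FPKM in females and 5.66 ± 2.07 FPKM in males. The nearest to OAS2 was comp7563_c0 with a rho of 0.885. The nearest gene to OASL reached a rho of 0.767 among 29702 genes. These likenesses do not identify the assembled genes.

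The seasons were compared across all 9610 genes with limma, and for the OAS genes only the differences are given, because their high July and August values were known when they were picked. In summer OAS1 had 10.5, 32.3 and 208 FPKM as lowest, median and highest value (n = 8), and in winter 9.16, 28.8 and 81.4 FPKM (n = 8). OAS2 had 1.68, 5.11 and 41.1 FPKM in summer and 0.64, 4.02 and 8.56 FPKM in winter. OASL had 0, 2.58 and 14.6 FPKM in summer and 0, 2.22 and 6.35 FPKM in winter. The ranges of the seasons overlapped throughout. The summer minus winter difference was 0.45 ± 0.57 (SE) for OAS1, 0.95 ± 0.58 for OAS2 and 0.58 ± 0.50 for OASL. In the whole table limma called 0 genes (0.0% of 9610), with 285 at an unadjusted p under 0.05. Leaving out the July and August libraries of Pele gave -0.23 for OAS1, with the sign turned round, 0.22 for OAS2 and 0.33 for OASL.

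In the females alone the mean of each member was higher in summer. OAS1 was 100.08, 147, 208 and 41.6 FPKM in the summer libraries and 81.4, 75.6, 26.7 and 47.5 FPKM in the winter libraries. OAS2 was 18.4, 35.2, 41.1 and 7.06 FPKM in summer and 8.56, 6.78, 3.87 and 6.17 FPKM in winter, and OASL was 2.21, 1.98, 14.6 and 8.55 FPKM in summer and 0.29, 0, 1.46 and 2.99 FPKM in winter. In each of these series the first value of summer and the first 2 of winter are from Keo and the others from Pele. For OAS1 and OASL the ranges overlapped, and for OAS2 the lowest summer library was below the highest winter library. The differences were 0.99 ± 0.48 for OAS1, 1.63 ± 0.52 for OAS2 and 1.70 ± 0.67 for OASL. Of all genes limma called 0.0% in this comparison, and 561 genes had an unadjusted p under 0.05. The July and August libraries of Pele, which were known to be high when the genes were picked, are 2 of the 4 summer libraries, and without them the differences were 0.28, 0.81 and 1.55.

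In the males OAS1 was 18.2, 10.5, 14.9 and 23.0 FPKM in summer and 9.16, 13.0, 22.6 and 30.9 FPKM in winter. OAS2 was 3.15, 2.31, 1.68 and 2.32 FPKM in summer and 0.64, 1.96, 1.34 and 4.17 FPKM in winter. OASL was 2.51, 0, 3.29 and 2.64 FPKM in summer and 0.94, 3.36, 6.35 and 2.97 FPKM in winter. In each season the first pair of values is from Hua and the second from Kai, and the ranges of the seasons overlapped for all 3 genes. The differences were -0.09 ± 0.47 for OAS1, 0.26 ± 0.50 for OAS2 and -0.54 ± 0.60 for OASL, and limma called 0.0% of all genes (158 at an unadjusted p under 0.05). For OAS1 leaving out 1 library turned the sign round when the library was Kai in February (0.04), Kai in December (0.19) or Hua in August (0.10).

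The seasonal difference in females minus that in males was 1.08 ± 0.69 for OAS1, 1.37 ± 0.72 for OAS2 and 2.25 ± 0.91 for OASL. For this interaction limma called 0.0% of all genes, with 233 at an unadjusted p under 0.05. With the July and August libraries of Pele left out the values were 0.37, 0.55 and 2.10.

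A yearly cosine fitted over all 31 libraries had an amplitude of 0.72 on the log2 scale for OAS1, 0.60 for OAS2 and 0.54 for OASL, beside a median amplitude of 0.25 over all genes. An amplitude is never negative and tends to be larger for genes that vary more, so these values do not by themselves show a yearly course. The fitted peak fell in September for OAS1 and OAS2 and in October for OASL. Limma called 0.0% of all genes for the yearly cosine, with 729 at an unadjusted p under 0.05. Without the July and August libraries of Pele the amplitudes were 0.55, 0.42 and 0.43. The p-values and the SEs of the seasonal differences count each library as a separate replicate, although several came from each of the 4 animals.

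The other genes of the OAS pathway were not set apart in the way OAS1 and OAS2 were, which had been picked on their levels. ABCE1, a ribosome recycling factor, averaged 10.2 ± 5.11 FPKM in females and 7.60 ± 3.63 FPKM in males, and PDE12, which degrades oligoadenylates, 8.71 ± 3.58 FPKM in females and 6.52 ± 2.77 FPKM in males. AKAP7, an anchoring protein with an oligoadenylate-degrading domain, averaged 3.78 ± 2.42 FPKM in females and 2.88 ± 2.46 FPKM in males.

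Of the 5 partners measured only CNP, a phosphodiesterase of cyclic nucleotides, passed the test between the sexes. In this test, here and for the lists below, each library counted as a replicate, although each sex had only 2 animals. CNP averaged 75.0 ± 24.5 FPKM in females and 50.2 ± 17.2 FPKM in males, a log2 difference of 0.57 ± 0.19 (limma adjusted p = 0.0436). That is 1 of 5 genes higher in females, against 12.1% of all genes called higher and 0.937% called lower by limma (1162 and 90 of 9610), and without the July and August libraries of Pele 0 of 5 passed, with 10.2% of all genes called and 3028 at an unadjusted p under 0.05. After median-ratio scaling 0 of 5 passed by limma, which then called 2.41% of all genes, 0.593% higher and 1.82% lower (57 and 175 of 9610), with 1318 at an unadjusted p under 0.05 in either direction. The median difference of the partners was 0.43, beside 0.34 for all genes. None passed between summer and winter, where the differences were 0.46 ± 0.48 for ABCE1, -0.16 ± 0.33 for PDE12, 0.31 ± 0.38 for AKAP7 and -0.21 ± 0.34 for CNP (limma adjusted p = 0.999 for each).

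Among interferon receptors and signalling genes 8 of the 15 measured were higher in females and none lower, beside 12.1% of all genes called higher. They included IRF7, the transcription factor that drives type I interferon genes, with 36.7 ± 46.4 FPKM in females and 11.9 ± 3.90 FPKM in males, and IFNAR2, a chain of the type I interferon receptor, with 55.4 ± 14.0 FPKM in females and 29.6 ± 12.8 FPKM in males. IFNAR1, the other chain of the receptor, had 23.8 ± 10.9 FPKM in females and 20.6 ± 8.91 FPKM in males and did not pass (limma adjusted p = 0.487). The median difference of the list was 0.64, beside 0.34 for all genes. Without the July and August libraries of Pele 5 of 15 passed, against 9.57% of all genes called higher, and after scaling 1 of 15 passed, against 0.593% of all genes, with a median of 0.27 beside 0.04 for all genes.

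Of the sensors of RNA and DNA 6 of 13 were higher in females and none lower (12.1% of all genes were called higher), with a median difference of 0.71, beside 0.34 for all genes. MB21D1, the DNA sensor cGAS, averaged 6.22 ± 4.16 FPKM in females and 2.05 ± 1.13 FPKM in males, and DHX58, a regulator of RIG-I-like receptors, 26.1 ± 15.8 FPKM in females and 12.1 ± 4.93 FPKM in males. TLR3, the endosomal receptor of double-stranded RNA, had 1.48 ± 0.98 FPKM in females and 1.89 ± 1.27 FPKM in males (limma adjusted p = 0.578). Without the July and August libraries of Pele 5 of 13 passed (9.57% of all genes). After scaling 0 of 13 passed (0.593% of all genes), and the median was 0.40, beside 0.04 for all genes.

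Of the other interferon-stimulated effectors 14 of 33 were higher in females and none lower, against 12.1% of all genes called higher, and the median difference was 0.71, beside 0.34 for all genes. IFIT1, which binds foreign RNA ends, averaged 117 ± 148 FPKM in females and 29.5 ± 13.5 FPKM in males, a log2 difference of 1.42 ± 0.35, and CD38, a surface ectoenzyme, 188 ± 176 FPKM in females and 64.0 ± 23.6 FPKM in males (1.36 ± 0.25). Both differences were smaller than those of OAS1 and OAS2, which were chosen with their differences known. IFI6 had 38.5 ± 19.2 FPKM in females and 39.7 ± 21.1 FPKM in males and did not pass (limma adjusted p = 0.936). When the July and August libraries of Pele were left out 9 of 33 passed (9.57% of all genes). After scaling 1 of 33 passed (0.593% of all genes), with a median of 0.38 beside 0.04 for all genes. Of the housekeeping genes set beside these lists, 3 of 10 passed as higher in females before scaling (12.1% of all genes). After scaling limma called 0 of 10 higher (0.593% of all genes) and 1 of 10 lower (1.82%), with 1318 of all genes at an unadjusted p under 0.05.

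None of these genes passed between summer and winter. The median difference was 0.35 for the effectors, 0.22 for the sensors and 0.16 for the receptors and signalling genes, beside -0.04 for all genes, and without the July and August libraries of Pele these medians were -0.07, -0.12 and -0.16.

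The July and August libraries of Pele were high across the interferon-stimulated genes. Of the 33 effectors 18 had their highest value in the August library and 7 in the July library, and in 14 both were above all other libraries (42.4%, against 2.37% of all genes). IFIT1 was 359 FPKM in July, 575 in August and 56.8 in September, with a median of 40.7. ZBP1, a sensor of Z-form nucleic acid, was 23.4 FPKM in July, 28.9 in August and 3.43 in September, with a median of 1.09.

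Not all genes of the lists had that shape. IFI6 was listed at 0 in July and had 55.3 FPKM in August and 55.4 in September, ABCE1 had 12.9 FPKM in July, 3.76 in August and 13.5 in September, and IFNGR1, a chain of the interferon gamma receptor, was in place 29 of 31 libraries in August. None of the 10 housekeeping genes was highest in either library. OASL resembled IFIT5, an RNA-binding relative of IFIT1, which was 5.60 FPKM in July and 24.9 in August, and BST2 (tetherin, which holds virions at the cell surface), with 4.19 FPKM in July and 33.4 in August, in being far higher in August than in July. The likeness did not extend to September, when IFIT5 had 3.98 FPKM and BST2 2.47 FPKM, whereas OASL still had 8.55 FPKM.

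By Spearman's rho over the 31 libraries, averaged over the 3 members, the genes most like the family were HERC5, LRRK2, DAPP1, IFIT1, DGAT2, SEMA4D, PTPRE, APOBEC1, TYK2 and RBM47 among 8862 genes with a symbol. HERC5, the ligase that attaches ISG15 to proteins, had a mean rho of 0.596, with 0.793 for OAS1, 0.761 for OAS2 and 0.234 for OASL. APOBEC1, a cytidine deaminase, had the highest rho with OAS1 among the 10 genes (0.867) and the lowest with OASL (0.09). All of the 10 genes had higher means in females, for example 57.8 ± 27.2 FPKM in females and 29.0 ± 8.31 FPKM in males for HERC5, and 310 ± 289 FPKM in females and 111 ± 21.5 FPKM in males for APOBEC1. That is no separate result, because the ranking used OAS1 and OAS2, which were known to be higher in females. The median log2 difference of all genes was itself 0.34 towards females.

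With each animal's mean subtracted, so that only the course within animals counted, the most alike genes included RNF213, GIMAP4, TAP1, NLRC5, GBP6, C2, IFIT1, PARP9 and SNX10. TAP1, a peptide transporter for antigen presentation, had an r of 0.835 with OAS1, 0.705 with OAS2 and 0.297 with OASL. NLRC5, which activates MHC class I genes, had 0.812, 0.631 and 0.38 with the same genes. Each of these 9 genes had both of its highest values in the July and August libraries of Pele, as did 2.37% of all genes. The ranking favours such genes, because OAS1 and OAS2 were known to be very high in these libraries, so the count is no separate result. IFIT1 was the 1 gene found by both measures.

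**Figure D5:**
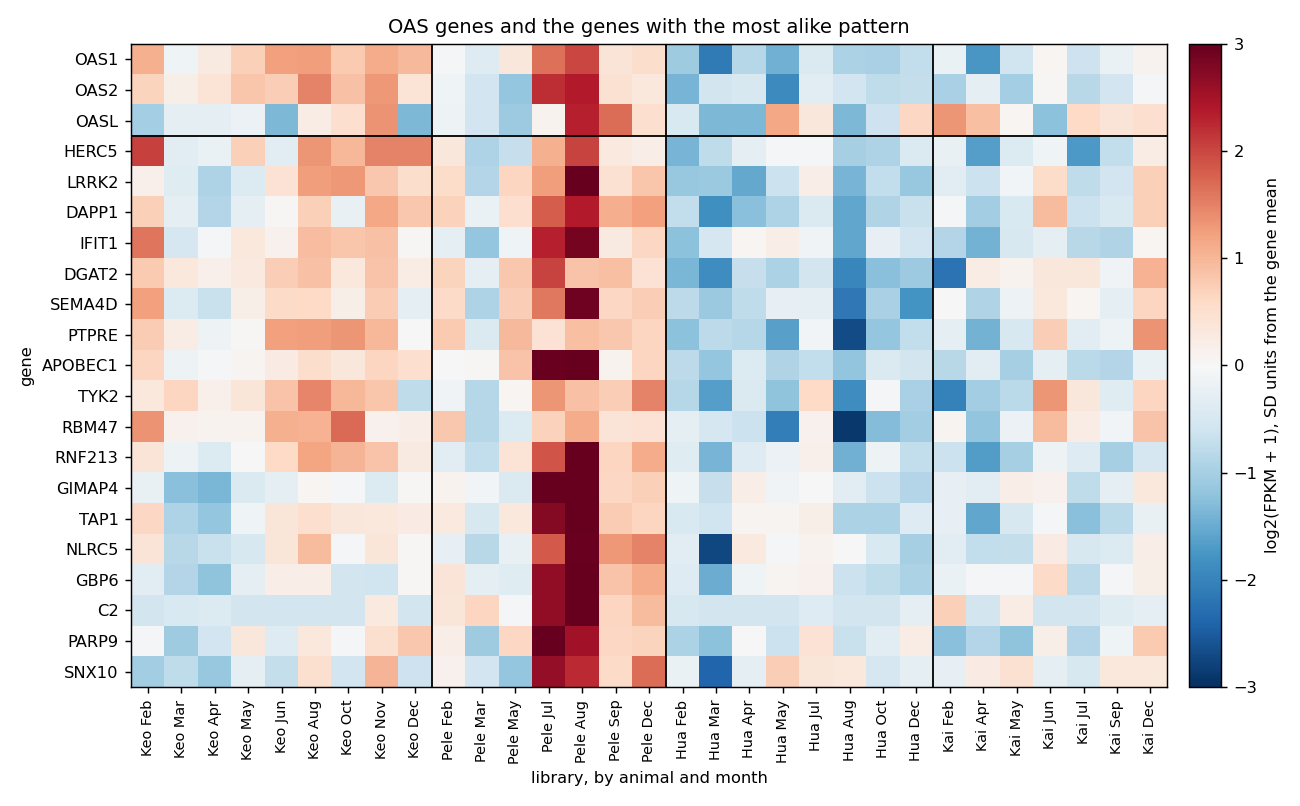
Heat map of OAS1, OAS2 and OASL (above the line) and of the genes most like them (below it) over the 31 libraries, in columns by animal and month. Colour gives log2(FPKM + 1) as SD units from the mean of each gene and is capped at 3. The first 10 genes below the line were ranked by Spearman's rho over all libraries and the rest by Pearson's r within animals, and the July and August columns of Pele are the highest for GIMAP4 and TAP1.

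In bulk blood, more cells of a type and more RNA per cell cannot be told apart. Summed neutrophil markers (9 of 16 measured) ran from 5384 to 16498 FPKM in females and from 2556 to 8317 FPKM in males, and 6 of 9 passed as higher in females by limma (12.1% of all genes). After median-ratio scaling 0 of 9 passed (0.593% of all genes), and their median was 0.43, beside 0.04 for all genes. Of the erythroid markers (13 of 15 measured) 5 of 13 passed as lower in females both before scaling (0.937% of all genes) and after it (1.82%), with sums from 62123 to 348538 FPKM in females and from 127159 to 352526 FPKM in males. Monocyte markers (10 of 11 measured) ran from 12220 to 42168 FPKM in females and from 9033 to 30378 FPKM in males. Of these 4 of 10 passed as higher in females by limma before scaling (12.1% of all genes) and 1 of 10 after it (0.593%). The part of these cells in the levels of OAS1 and OAS2 was not tested.

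Over the 31 libraries OAS1 had a rho of 0.538 with the neutrophil sum, 0.375 with the monocyte sum and -0.448 with the erythroid sum. The corresponding values were 0.516, 0.472 and -0.256 for OAS2, and -0.263, -0.131 and -0.04 for OASL. The largest part of the erythroid sum was HBB (median 149593 FPKM), a target of the globin removal. LYZ (median 23019.5 FPKM) was the largest part of the monocyte sum. Relations with the erythroid and monocyte sums may therefore reflect these single genes more than the cell types. T cell markers (11 of 12 measured) had a rho of 0.367 with OAS1, 0.403 with OAS2 and -0.206 with OASL, and B cell markers (6 of 10 measured) -0.121, -0.02 and -0.181. Cytotoxic and NK cell markers (11 of 12 measured) had a rho of 0.575 with OAS1, 0.369 with OAS2 and 0.161 with OASL. Plasmacytoid dendritic cell markers, a sum dominated by IRF7 and GZMB in the libraries described next, had the strongest relation with OAS1 over all 31 libraries. The rho was 0.629, with 0.489 for OAS2 and 0.08 for OASL. Without the July and August libraries of Pele the rho with OAS1 was 0.547 for this sum. It was then -0.586 for the erythroid sum, so the order of these relations rested on the 2 libraries. For platelet markers (6 of 10 measured) the values were 0.463, 0.242 and 0.112, and for eosinophil and basophil markers (5 of 10 measured) -0.006, 0.09 and -0.03. The summed FPKM of a library had a rho of -0.479 with OAS1, -0.352 with OAS2 and 0.02 with OASL. The number of genes above 0 in a library had a rho of 0.11 with OAS1, 0.09 with OAS2 and 0.01 with OASL.

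In the July and August libraries of Pele the neutrophil sum was 11685 and 8523 FPKM, with 8397 in September, and the T cell sum 426 and 391 FPKM, with 633 in September. Both were within the range of the other libraries, whereas the monocyte sum of July (42168 FPKM) was the highest of all, with 25968 in August. LYZ alone made up 41063 FPKM of that July sum. Of the 10 monocyte markers measured 3 (LYZ, CD68 and CD163) were highest in July, against 6.01% of all genes. CD14 (104.94 FPKM) and ITGAM (99.77 FPKM) were below their medians of 105.55 and 106.25 in July. The eosinophil and basophil sum was 442 FPKM in July and 157 in August, the lowest of all libraries, and the B cell sum was 212 FPKM in July and 143 in August, the lowest of the female libraries. Markers of plasmacytoid dendritic cells, the main producers of type I interferon in blood, were measured for 5 of 9 genes. Their sum was 146 FPKM in July, 230 in August and 132 in September, and it was carried by IRF7, itself an interferon-induced gene, with 114, 185 and 21.6 FPKM, and by GZMB, which cytotoxic cells share, with 21.8, 37.8 and 93.0 FPKM. TCF4 had 5.59 FPKM in July and 4.86 in August, above its median of 3.41 over all libraries. IL3RA had 4.11 FPKM in July and 3.06 in August, below its median of 7.77, and BCL11A had 0.60 FPKM in July and was listed at 0 in August, with a median of 3.06.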

How the data were processed

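Whole blood RNA depleted of globin transcripts was sequenced in 31 libraries. Per the methods of the study and its processing notes, the authors trimmed reads with Trimmomatic. Reads were mapped to the Ensembl dolphin genome turTru1 with Bowtie2 2.2.4 or TopHat2 2.3.13. For the de novo table they were mapped with Bowtie2 to the de novo blood assembly of the authors. The deposited FPKM came from RSEM 1.2.18 (genome and de novo tables) and from Cufflinks 2.2.0. Genes whose mean fell below 1 FPKM had been removed before deposit. The methods give a target depth for sequencing, the reads obtained in each library were not used here, and low FPKM values showed no steps from which depth could be read, so no counting interval was computed. Of the RSEM values 5.13% were 0. Files holding only the authors' own comparisons (fold changes and posterior probabilities of differential expression) were not used.

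Tests used limma 3.58.1 in R 4.3.3 (eBayes with a mean-variance trend) on log2(FPKM + 1). They were two-sided, p-values were adjusted by Benjamini-Hochberg over the 9610 genes of the RSEM table, and genes below 0.05 were called. The fits were run on simulated data in which all libraries were independent, so the repeated sampling of animals was not covered. Libraries were the unit and sex, season and month came from the labels. The replicates are repeated samplings of 4 animals. Alternatives were a pseudocount of 0.1, median-ratio scaling, a mean FPKM of at least 5, the Cufflinks table, the animal as a block, and leaving out libraries or animals.

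The 3 genes, the gene lists and the tests were chosen with earlier results of these data known. Season fits had been planned as tests of the 3 genes, but because the genes were picked on levels by month, only their differences are given. The measured OAS pathway partners were named, apart from items that are not reported here. Of each other list the 2 highest and 2 lowest log2 differences could be named, as could the 10 most alike genes by mean Spearman's rho and the 10 by mean Pearson's r within animals. Genes named for their values in the July and August libraries of Pele, and single cell type markers, were chosen after their values were seen.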

Additional observations from a re-analysis of the deposited data

Results flagged for a closer look

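Among 30 combinations of a gene with an animal or with a group of sex and season, 2 had an end value far from the rest by Dixon's criterion, and chance gives about 1 in 20. Both were the same OASL value, 6.48 FPKM in the November library of Keo. It was the highest of the 9 libraries of Keo and of the 8 female libraries from months outside summer and winter, and the next highest was 2.96 FPKM in both. OAS1 and OAS2 of that library were within the range of the other libraries of Keo.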

How the results depend on the processing

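Genes called between summer and winter and in the cosinor numbered 0 to 1 when 1 library was left out. Signs turned for OAS1 between summer and winter without the July and August libraries of Pele (-0.23), and in males with the Cufflinks table (0.11) or with 1 library left out (-0.36 to 0.19). With the animal as a replicate block, taken from the labels (replicate numbers only name libraries), the summer minus winter difference was 0.51 for OAS1, 0.95 for OAS2 and 0.38 for OASL, and no call changed. Genes called between the sexes numbered 1252, against 232 after median-ratio scaling, 564 without Kai, 295 without Keo, 225 without Pele, and 782 to 1655 with 1 library left out. The lowest counts with 1 library left out were without the February (782) or April (798) library of Kai. Pearson's r of OAS1 and OAS2 was 0.654 with each animal's mean subtracted. Of the 10 most alike genes 5 stayed after scaling, 2 without the July and August libraries of Pele, 1 within animals and 0 in the Cufflinks table, which lacks OASL. Cufflinks gave mean OAS1 levels of 11.8 FPKM in Keo, 1.496 in Hua and 2.62 in Kai, and 4.99 for OAS2 in Keo. Precision is limited by 4 animals and by low values of OASL and of male OAS2.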
